A study of Mus musculus with 8 samples.

Results

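The mouse miRNA card used here carries 5 assays for the mature miRNAs of the miR-23, miR-24 and miR-27 groups. They were chosen by name (miR-23, miR-24 or miR-27 with at most 1 letter after the number) and are 5 of the 381 assays listed. Of these, 4 had a value on all 8 cards: miR-23b, miR-27b, miR-24 and miR-27a. The assay for miR-23a had none on any card. Liver RNA came from female mice of the strain labelled C57B6, 4 weeks old when treatment began. Untreated mice were compared with mice injected intraperitoneally with carbon tetrachloride (CCl4) in corn oil for 1, 4 or 8 weeks, with 2 cards in each of the 4 groups. CCl4 is a hepatotoxin that hepatocytes convert into reactive products, and repeated injections are a common model of liver fibrosis. The labels give the dose as 1 mg/kg and the methods give 1 ml/kg. Age is labelled only for the start of treatment, so time on CCl4 and age at collection cannot be told apart between the treated groups. The labels call the control untreated, with no mention of corn oil, and do not say whether the 2 cards of a group hold RNA from separate mice. The design text counts 4, 3 and 2 mice for 1, 4 and 8 weeks, which differs from the 2 cards except at 8 weeks, and how mice relate to cards is not given.

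A miRNA is cut from a hairpin in a longer primary transcript and guides repression of mRNAs that pair with its seed, the bases from position 2 to 8. In the mouse, miR-23, miR-27 and miR-24 hairpins lie in the same order in a pair of clusters at different places in the genome, and the hairpins of a cluster can be made from a shared primary transcript. miR-27 is known for repressing genes of lipid metabolism and miR-24 for roles in cell proliferation and apoptosis. The cluster with miR-23b is known for repressing Smad proteins, which carry TGF-β signals, in liver progenitor cells, and miR-27a and miR-27b have been studied in the activation of hepatic stellate cells, the main source of fibrous matrix in injured liver.

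The mature sequences, from RefSeq on build GRCm38.p6, show which assays share a seed (in capitals) and how far the related forms can be told apart. Of the 5 miRNAs, 4 had an entry that was matched by name; miR-23b is named only.
miR-23a-3p: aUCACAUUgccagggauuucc
miR-27a-3p: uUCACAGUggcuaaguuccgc
miR-27b-3p: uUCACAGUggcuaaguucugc
miR-24-3p: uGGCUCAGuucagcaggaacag
The miR-27a and miR-27b forms are both 21 bases long, share the seed and differ at 1 base, C19U from miR-27a to miR-27b, counted from the 5′ end. Whether either assay also reads the other form was not tested. miR-24-3p has the same sequence from both of its hairpins, so its assay reads the sum of both clusters, while the assays for miR-27a, miR-27b and miR-23b are each named for a single hairpin.

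On GRCm38.p6, Mir23a, Mir27a and Mir24-2 lie on the plus strand of chromosome 8 within 404 bases (chr8:84208518-84208921), with 79 bases between the first pair of hairpins and 56 between the next. The mature miR-27a lies at chr8:84208727-84208747 and overlaps no protein-coding gene in the RefSeq annotation. Mir23b, Mir27b and Mir24-1 lie on the plus strand of chromosome 13 within 792 bases (chr13:63300484-63301275), inside the bounds of the protein-coding gene Aopep, with 154 and 423 bases between hairpins. The mature miR-27b lies at chr13:63300760-63300780. The 2 genomic copies of miR-24-3p lie at chr8:84208875-84208896 and chr13:63301251-63301272. The build behind the card's assays is not given in the sources used here, and these positions serve to show which hairpins neighbour each other.

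Each value began as a threshold cycle (Ct), the PCR cycle at which an assay's signal crosses a threshold. Each cycle less means roughly a doubling of the starting template. Between 193 and 235 assays had a Ct on each card, and 102 of the 381 had none on any card. Values are given on a log2 scale, obtained by subtracting the Ct of an assay from its card mean, which was taken over 149 assays whose Ct was under 35 throughout. That card mean ran from 27.5 to 29.8. The 166 assays that had a Ct on all cards and averaged under Ct 35 were tested together with limma, and their median replicate SD was 0.39 (log2). Precision is limited by having 2 cards in a group, and p-values measure only the spread between these cards, which may be technical. miR-122, the defining hepatocyte miRNA, was determined on all 8 cards with a mean Ct of 22.8 and ranked 9 of the 166 by brightness. Whole liver was measured, and fewer cells of a type cannot be told apart from less of a miRNA per cell.

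Of the 4 assays, miR-27b was lower than in untreated liver and passed the test at 1 and 4 weeks of CCl4. miR-23b was low on both 1-week cards without passing, miR-27a did not pass in any comparison, and miR-24 passed only in the differences of 4 and 8 weeks from 1 week. In the comparison with untreated liver, 1 of the 4 tested assays passed a Benjamini-Hochberg adjusted p of 0.05 at 1 week, where 32.5% of all 166 passed. At 4 weeks it was again 1 of 4, beside 30.1% of all, and at 8 weeks 0 of 4, beside 3.01% of all. At 8 weeks 0 of the 4 also had an unadjusted limma p below 0.05, the lowest being 0.056 for miR-27b. The shares of calls among these 4 assays are thus near those of the card. The cards of a treated group did not overlap the untreated cards for 3 of the 4 at 1 week (76.5% of all 166), 4 of 4 at 4 weeks (68.1%) and 3 of 4 at 8 weeks (60.8%). For all 6 treated cards against the untreated cards this held for 1 of 4, miR-27b (29.5% of all). The median log2 difference of the 4 at the 3 times was -0.59, -0.57 and -0.59, and that of all 166 was -0.09, 0.03 and -0.04. All 3 comparisons share the same 2 untreated cards.

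**Figure D1:**
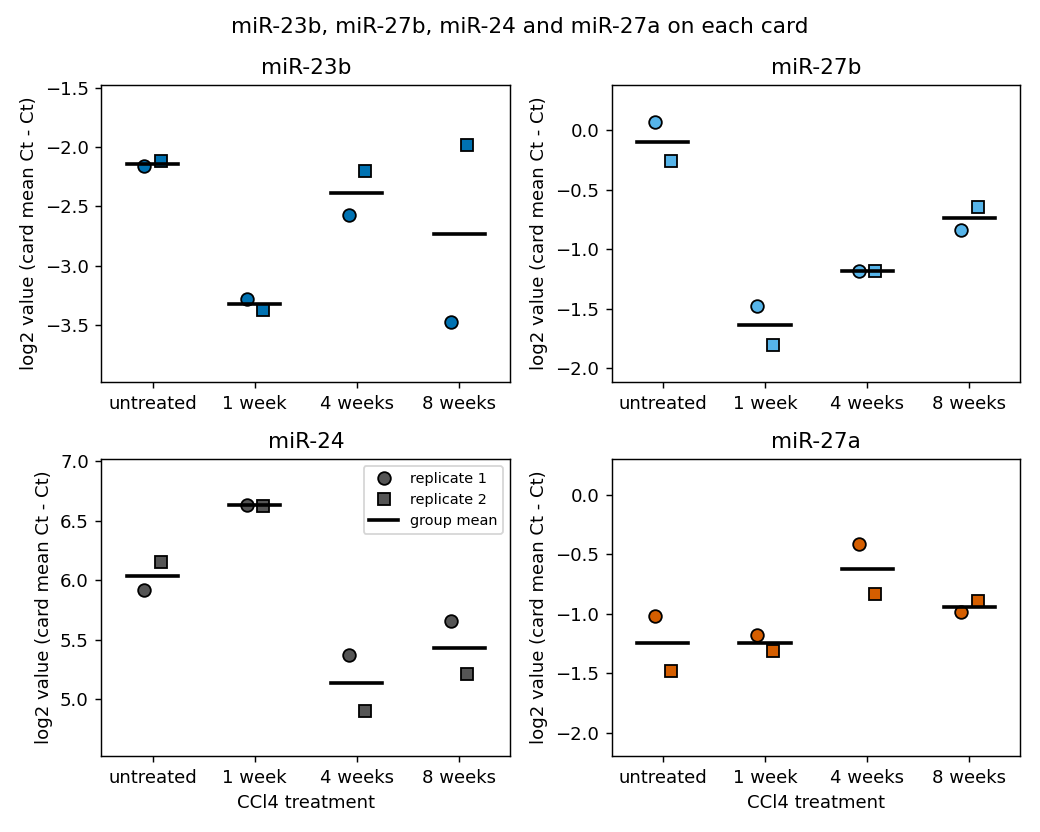
The log2 value (mean Ct of the card over 149 assays, minus the Ct of the assay) of each assay is plotted by group, with a circle for replicate 1, a square for replicate 2 and a bar for the group mean; each panel spans the same height. All 6 treated cards lie below both untreated cards for miR-27b, and the 8-week cards of miR-23b lie far apart, at -3.48 and -1.98.

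miR-27b, from the chromosome 13 cluster, had log2 values of 0.07 and -0.26 without CCl4, then -1.47 and -1.80 after 1 week, -1.19 on both cards after 4 weeks and lastly -0.84 and -0.64 after 8 weeks. Both untreated cards were above all 6 treated cards, and the groups stood in the order untreated, 8 weeks, 4 weeks, 1 week. Relative to the untreated mean, the linear level was 0.343 ± 0.055 (SD, n = 2 cards) at 1 week, 0.467 at 4 weeks, where the cards were equal to 3 decimals, and 0.638 ± 0.061 at 8 weeks. The log2 difference was -1.54 at 1 week (standard error 0.28, adjusted p = 0.0079 from limma), -1.09 at 4 weeks (adjusted p = 0.0238) and -0.64 at 8 weeks (95% interval -1.31 to 0.02, adjusted p = 0.201). By size of difference, miR-27b ranked 42 of 166 at 1 week, 72 at 4 weeks and 79 at 8 weeks. Over the 3 times together its log2 difference was -1.09 (adjusted p = 0.0150, limma), 1 call among the 4 assays beside 28.9% of all 166. Neighbours in the order did not differ past the threshold, with adjusted p = 0.214 between 4 weeks and 1 week and 0.429 between 8 and 4 weeks, and 8 weeks against 1 week gave 0.90 (adjusted p = 0.0561, all limma).

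The miR-27b value was below 0 at each of the 3 times under all alternatives tried, but the calls were less stable. The call at 1 week was lost without untreated replicate 1 (log2 difference -1.38, adjusted p = 0.0560 from limma) and without 1-week replicate 2 (-1.38, adjusted p = 0.0620). The call at 4 weeks was lost when any card of those groups was left out: adjusted p = 0.114 (-0.93) and 0.0621 (-1.25) without untreated replicate 1 and 2, and 0.0645 (-1.09) and 0.0809 (-1.09) without 4-week replicate 1 and 2. The control RNAs, which are a further way of centring, moved themselves: U6 was at 2.38 at 1 week (adjusted p = 0.0080, limma) and -1.50 at 4 weeks (0.0417), snoRNA202 was at -1.39 at 1 week (0.0139), and snoRNA135 passed at none of the 3 times. The call at 4 weeks was also lost with the geometric mean of each card's determined assays, the normalization the methods name (-1.30, adjusted p = 0.0640), with their arithmetic mean (-1.37, 0.0577), with the control RNAs (-0.45, 0.353), with raw Ct values and no normalization (-1.94, 0.155), when undetermined values became Ct 40 (-1.09, 0.0957) and with a fit to only those groups (-1.09, 0.0668). At 1 week the call was also lost without normalization (-2.06, adjusted p = 0.179). For the 3 times together it was lost without either untreated card (-0.93, adjusted p = 0.132, and -1.25, 0.0780), with the control RNAs (-0.80, 0.0968), with raw Ct values (-1.55, 0.327) and when undetermined values became Ct 40 (-1.09, 0.0806).

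miR-23b, from the same cluster as miR-27b, was the faintest of the 4, with Ct values from 30.11 to 32.04. Its log2 values were -2.16 and -2.12 without CCl4, then -3.27 and -3.37 after 1 week, -2.58 and -2.21 after 4 weeks and lastly -3.48 and -1.98 after 8 weeks. Both 1-week cards lay below all untreated and 4-week cards, whereas at 8 weeks 1 card was the lowest of the 8 and the other the highest. Set to 1 in untreated liver, the linear level was 0.441 ± 0.021 (SD, n = 2 cards) after 1 week, then 0.848 ± 0.153 after 4 weeks and 0.757 ± 0.510 after 8 weeks. On the log2 scale the difference from untreated was -1.18 at 1 week (95% interval -2.29 to -0.08, adjusted p = 0.0949 from limma), -0.25 at 4 weeks (adjusted p = 0.726) and -0.59 at 8 weeks (adjusted p = 0.402). None of the 3 passed at an adjusted p of 0.05.

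The spread of the 8-week cards enters the shared estimate of error for this assay, since the replicate SD was 1.06 at 8 weeks and from 0.03 to 0.26 in the other groups. The Ct values of miR-23b on 8-week replicates 1 and 2 were 30.96 and 30.86, while the card means were 27.5 and 28.9. The other assays had a higher Ct on replicate 2: miR-27b 28.32 and 29.52, miR-24 21.83 and 23.67, miR-27a 28.47 and 29.77. The difference miR-23b minus miR-27b, taken on each card without centring, was also apart, at -2.64 and -1.34. What set miR-23b apart on these cards was not tested. Without 8-week replicate 1 or 2, the 1-week value of miR-23b stayed at -1.18 and passed (adjusted p = 0.0251 in both fits, limma), as it did in a fit to only the untreated and 1-week cards (0.0235), and with the arithmetic (-1.54, 0.0403) or geometric mean (-1.53, 0.0392) of all determined assays. Without 8-week replicate 1 the 8-week value turned to 0.16, and without replicate 2 it was -1.34. At 4 weeks the value was 0.39 with the control RNAs, -0.06 without 4-week replicate 1 and -0.44 without 4-week replicate 2. For the 3 times together, miR-23b was -0.67 (adjusted p = 0.256, limma). With each card left out in turn it ran from -0.92, without 8-week replicate 2, to -0.42.

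miR-27a, from the chromosome 8 cluster, had log2 values of -1.01 and -1.48 without CCl4, then -1.17 and -1.31 after 1 week, -0.42 and -0.84 after 4 weeks and lastly -0.99 and -0.89 after 8 weeks. The 1-week cards lay between the untreated cards, and the 4-week cards lay above all others. Set to 1 in untreated liver, its linear level was 0.990 ± 0.067 (SD, n = 2 cards) after 1 week, then 1.53 ± 0.31 after 4 weeks and 1.22 ± 0.06 after 8 weeks. The log2 difference was 0.00 at 1 week (95% interval -0.71 to 0.71, adjusted p = 0.995 from limma), the smallest of the 166 assays in size. It was 0.62 at 4 weeks (-0.09 to 1.33, adjusted p = 0.155) and 0.31 at 8 weeks (-0.40 to 1.02, adjusted p = 0.497). Without untreated replicate 1 these later values were 0.85 and 0.54, and without untreated replicate 2 they were 0.39 and 0.08. Without 4-week replicate 1 the 4-week value was 0.41. The 4-week value was 1.26 and passed with the control RNAs (adjusted p = 0.0441, limma), of which U6 was itself lower at 4 weeks (-1.50), and was -0.23 without normalization. A p that misses the threshold does not show that miR-27a stayed level, and the intervals allow differences of about 0.71 in either direction at 1 week.

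miR-24, read from both clusters, was among the brightest assays, with Ct values from 21.8 to 24.9 and rank 7 of 166. It had log2 values of 5.92 and 6.15 without CCl4, then 6.64 and 6.63 after 1 week, 5.37 and 4.90 after 4 weeks and lastly 5.65 and 5.21 after 8 weeks. Both 1-week cards were above the untreated cards and all 4 later cards were below them, so the groups stood in the order 1 week, untreated, 8 weeks, 4 weeks. Set to 1 in untreated liver, the linear level was 1.51 ± 0.01 (SD, n = 2 cards) after 1 week, then 0.543 ± 0.124 after 4 weeks and 0.664 ± 0.144 after 8 weeks. Against untreated, the log2 difference was 0.60 at 1 week (95% interval -0.13 to 1.32, adjusted p = 0.177 from limma), -0.89 at 4 weeks (-1.62 to -0.17, adjusted p = 0.0649) and -0.60 at 8 weeks (-1.33 to 0.12, adjusted p = 0.246). None passed, although the 4-week value did with a limit of mean Ct 32 (adjusted p = 0.0465, limma) and with a variance trend (0.0333), and the 1-week value did after quantile normalization (0.65, adjusted p = 0.0455). Quantile normalization gave 0.00 at 4 weeks and 0.08 at 8 weeks. The 8-week value was -0.38 without 8-week replicate 2.

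Between treatment times, miR-24 was the only one of the 4 to pass. The log2 difference of 4 weeks from 1 week was -1.49 (limma, standard error 0.31, adjusted p = 0.0090), 1 call of 4 beside 47.0% of all 166. The difference of 8 weeks from 1 week was -1.20 (adjusted p = 0.0332), 1 of 4 beside 24.1%. Between 8 and 4 weeks 0 of the 4 passed, beside 1.20% of all, and 0 had an unadjusted limma p below 0.05. The difference between 4 weeks and 1 week lost its call without 4-week replicate 2 (-1.26, adjusted p = 0.0533, limma), with the arithmetic or geometric mean of all determined assays (-1.41, 0.0537, and -1.36, 0.0567), with the control RNAs (-0.61, 0.210), with raw Ct values (-1.83, 0.183) and when undetermined values became Ct 40 (-1.49, 0.0504). That between 8 weeks and 1 week lost it without either 1-week card (-1.20, adjusted p = 0.122 and 0.129), without 8-week replicate 2 (-0.98, 0.176), when undetermined values became Ct 40 (-1.20, 0.132) and under each other centring, where it ran from -1.13 to -0.50. For the other 3 assays the 4-week against 1-week differences were 0.93 for miR-23b (adjusted p = 0.137), 0.45 for miR-27b (0.214) and 0.62 for miR-27a (0.130), all limma. With each card left out in turn, this difference ran from 0.29 to 0.62 for miR-27b and from 0.41 to 0.83 for miR-27a. Over the ways of centring it ran from 0.04 to 1.33 and from 0.285 to 1.50. The miR-23b difference stayed at 0.93 and passed without 8-week replicate 1 or 2 (adjusted p = 0.0399 in both fits, limma). Its difference of 8 weeks from 1 week, 0.60 (adjusted p = 0.365), was 1.34 and passed without 8-week replicate 1 (0.0346) and was -0.15 without replicate 2.

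**Figure D2:**
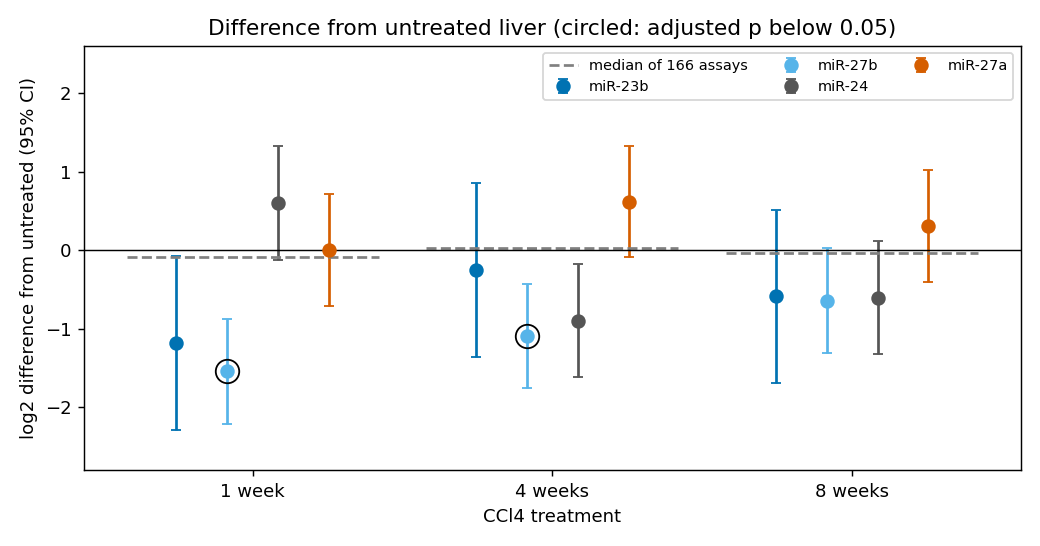
The log2 difference of each assay from untreated liver is plotted for 1, 4 and 8 weeks with its 95% confidence interval from limma, and the dashed line is the median of all 166 tested assays. Circled points passed an adjusted p of 0.05: miR-27b at 1 week (-1.54) and 4 weeks (-1.09).

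miR-23a, the remaining assay of the chromosome 8 cluster, was undetermined on all 8 cards, as was the plant assay ath-miR159a, which serves as a negative control. Whether the miR-23a well failed or its template was below detection was not tested. The chromosome 8 cluster is therefore represented by miR-27a and by its share of miR-24.

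Because both assays of a pair are read on the same card, the difference between them is the same under any centring that subtracts 1 value from a whole card. Comparisons were made for the 6 pairs of the 4 determined assays, with the 6 CCl4 cards set against the 2 untreated cards. The test was a two-sided exact permutation test with 28 possible splits, and 0.0357 is the lowest p these allow. A difference between assays includes their unequal efficiency, so only its shift between groups is read.

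miR-27b minus miR-27a, which have the same seed and come from different clusters, was 1.08 and 1.22 without CCl4, then -0.30 and -0.49 after 1 week, -0.77 and -0.35 after 4 weeks and lastly 0.15 and 0.25 after 8 weeks. All 6 treated cards lay below both untreated cards, and the mean shift was -1.40 on the log2 scale (lower in 6 of 6 treated cards, exact permutation p = 0.0357, 0.214 after Benjamini-Hochberg adjustment over the 6 pairs). The shifts from the untreated mean after 1, 4 and 8 weeks were -1.55, -1.71 and -0.95. Without untreated replicate 1 or 2, the shift was -1.47 and -1.33, and the exact test could not pass (p = 0.143 in both). This was the only one of the 6 pairs without overlap between treated and untreated cards. Over all 13695 pairs of the 166 tested assays, 26.3% had no such overlap, so 1 of 6 is no more than the card as a whole shows.

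Within the chromosome 13 cluster, miR-23b minus miR-27b was -2.23 and -1.86 without CCl4, then -1.80 and -1.57 after 1 week, -1.39 and -1.02 after 4 weeks and lastly -2.64 and -1.34 after 8 weeks. The 1-week and 4-week cards lay above both untreated cards, and the 8-week cards lay on either side of them. The mean shift of 0.42 did not pass (exact permutation p = 0.357, adjusted 0.536). It was 0.62 without 8-week replicate 1, 0.23 without untreated replicate 1 and 0.30 without 4-week replicate 2. miR-23b minus miR-27a shifted by -0.98 (exact permutation p = 0.0714, adjusted 0.214), with shifts of -1.18 at 1 week, -0.87 at 4 weeks and -0.89 at 8 weeks. The 8-week cards lay far apart, with replicate 1 at -2.49 and replicate 2 at -1.09. Replicate 2 was the card that overlapped the untreated values of -1.15 and -0.64. Without that card the shift was -1.14, and no p is read there, since leaving out the overlapping card fixes the result of the test.

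Pairs with miR-24 had unlike values at the 3 times. miR-27b minus miR-24 was -5.85 and -6.41 without CCl4, then -8.11 and -8.43 after 1 week, -6.56 and -6.09 after 4 weeks and lastly -6.49 and -5.85 after 8 weeks. Only the 1-week cards stood outside the range of the others by more than 1 on the log2 scale, and the shifts from untreated at the 3 times were -2.14, -0.19 and -0.04. miR-23b minus miR-24 was -8.08 and -8.27 without CCl4, then -9.91 and -10 after 1 week. It was -7.95 and -7.11 after 4 weeks and -9.13 and -7.19 after 8 weeks. Its shifts at the 3 times were -1.78, 0.64 and 0.01. The last is a mean of cards far apart, on either side of the untreated cards. miR-24 minus miR-27a, the hairpins that are closest together, was 6.93 and 7.63 without CCl4, then 7.81 and 7.94 after 1 week, 5.79 and 5.74 after 4 weeks and lastly 6.64 and 6.10 after 8 weeks. It was above both untreated cards at 1 week and below both at the later times. The shifts over all treated cards of these 3 pairs were -0.79, -0.37 and -0.61, and the exact permutation p was 0.357, 0.750 and 0.500 (adjusted 0.536, 0.750 and 0.600). With each card left out in turn, these shifts ran from -1.07 to -0.49, from -0.66 to -0.08 and from -0.96 to -0.26. The shifts of single times were not tested, since with 2 cards on each side the lowest two-sided exact p is 0.333.

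**Figure D3:**
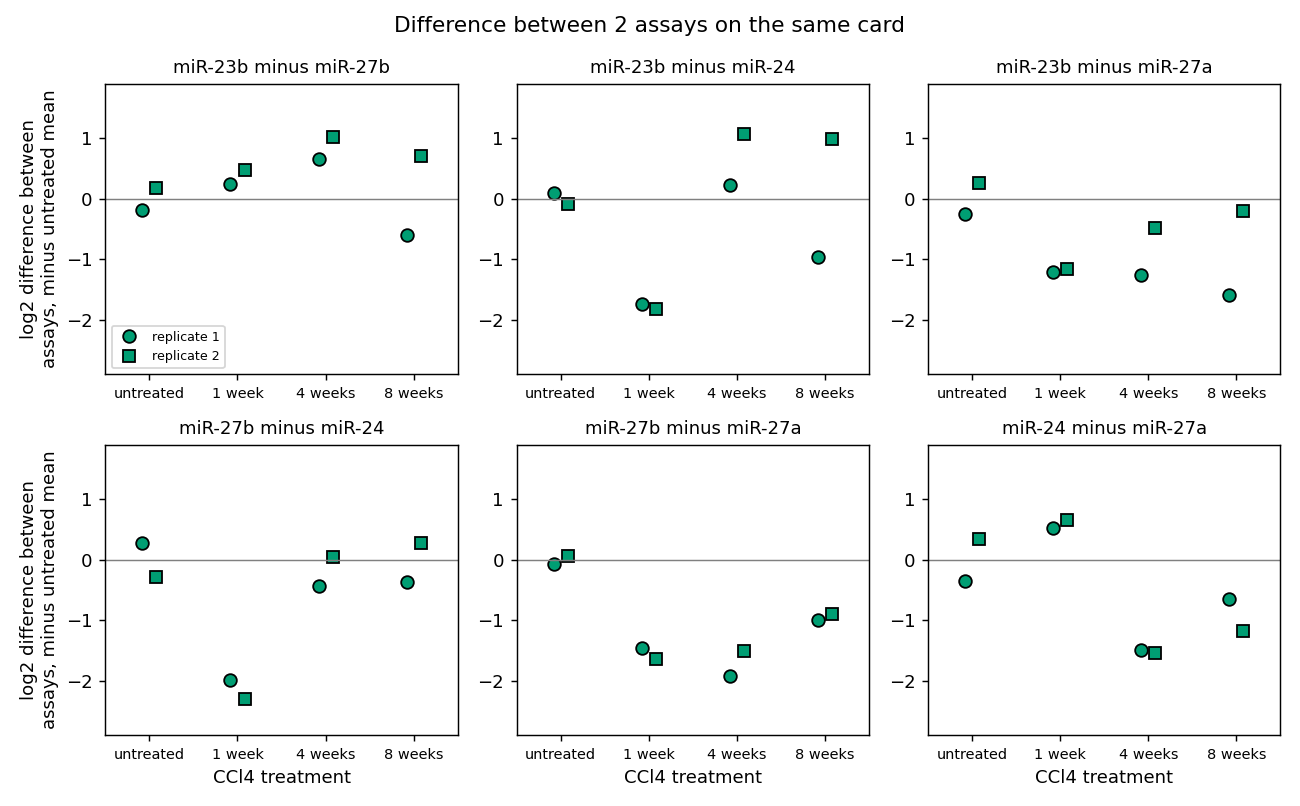
For each of the 6 pairs, the log2 difference between the assays on a card, minus the mean of the untreated cards, is plotted by group with a circle for replicate 1 and a square for replicate 2; the line at 0 is the untreated mean. miR-27b minus miR-27a lies below the untreated cards on all 6 treated cards, and miR-27b minus miR-24 is low at 1 week (shift -2.14).

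The assays with the most similar course were found by the root mean square difference between profiles over the 8 cards, each profile set to a mean of 0. The 3 nearest to miR-27b were miR-26a (0.21), let-7f (0.23) and miR-30d (0.27), beside a median of 0.87 over all tested assays. As log2 differences from untreated, miR-26a was at -1.06 at 1 week and -1.01 at 4 weeks, and let-7f at -1.06 and -1.03, all past an adjusted p of 0.05 (limma). miR-30d was at -1.07 at 1 week (adjusted p = 0.0258, limma) and -0.63 at 4 weeks, where it did not pass (0.127). These assays were picked for their likeness on the same cards, so their values describe the likeness and add no support. Nearest to miR-23b were miR-10a (0.26), miR-100 (0.30) and miR-99a (0.32), beside a median of 0.85. These 3 were at -0.98, -0.82 and -0.85 at 1 week, and none passed the test. For miR-24 they were miR-425 (0.21), miR-200a (0.27) and miR-31 (0.30), beside 0.88. In the comparisons with untreated at 1, 4 and 8 weeks, miR-425 was at 0.57, -0.69 and -0.16, miR-200a at 0.03, -1.02 and -1.04, and miR-31 at 0.90, -1.24 and -0.50. For miR-27a they were miR-93 (0.20), let-7i (0.21) and miR-199a-3p (0.24), beside 0.73. No member of these clusters was among the 3 nearest of another. The nearest pair of members was miR-23b and miR-27b (0.49), with miR-27b ranked 16 for miR-23b. For miR-27b, miR-23b ranked 23, miR-27a 51 and miR-24 92.

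**Figure D4:**
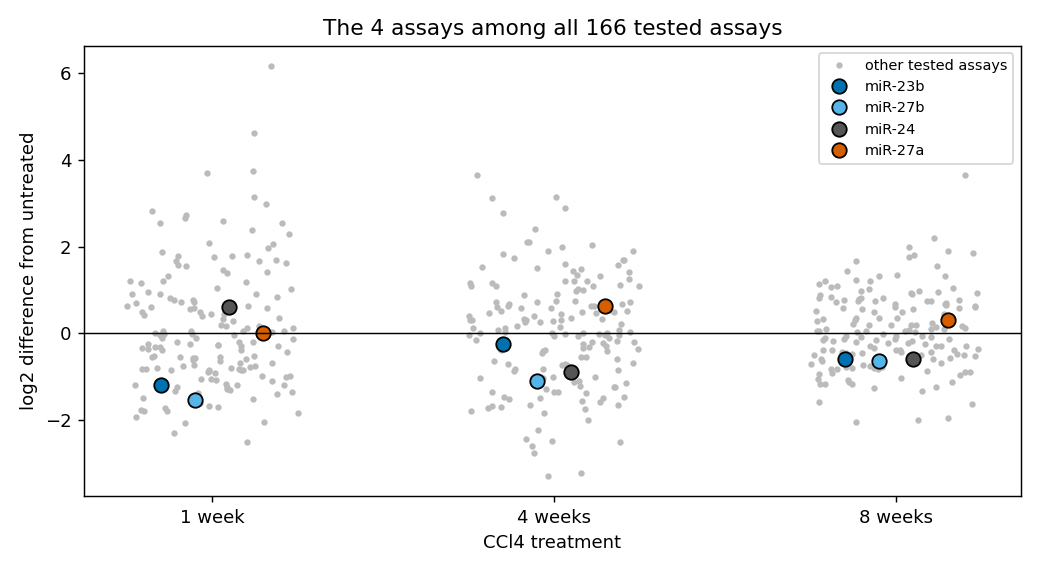
Grey points are the log2 differences from untreated liver of the other tested assays at 1, 4 and 8 weeks, spread sideways for legibility, and coloured points are the 4 assays described here. miR-27b at -1.54 and miR-23b at -1.18 lie in the lower part of the 1-week cloud, and miR-27a at 0.00 lies in its middle.

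Other miRNAs studied in fibrosis gave a setting for these values. Of 19 tested miRNAs listed as restraining matrix production or stellate cells (miR-29, miR-30 and miR-101 members among them), 3 were higher and 4 lower at 1 week, 1 was higher and 8 lower at 4 weeks, and 0 passed at 8 weeks (limma). Over all 166 assays, the shares called higher and lower were 18.1% and 14.5% in the 1-week comparison, 13.3% and 16.9% in the 4-week one, and 2.41% and 0.602% in the 8-week one. The largest called changes of the list at 1 week were miR-29b, which targets collagens, at -2.50, miR-150 at 1.97 and miR-146a at 1.79, of which the last pair are also leukocyte miRNAs. The median of the list was -0.30, -0.82 and -0.59 at 1, 4 and 8 weeks. With single cards left out, its 7 calls at 1 week fell to as few as 1 (without untreated replicate 1) and its 9 at 4 weeks to as few as 4 (without untreated replicate 2). They were 1 and 0 when undetermined values became Ct 40, and 2 and 3 with raw Ct values. Of 7 tested miRNAs listed as promoting fibrosis, 2 were higher at 1 week (miR-34a, 1.56, and miR-222, 1.20), 3 at 4 weeks and 1 at 8 weeks, and 0 were lower, with medians of 0.33, 1.10 and 0.34. With the geometric mean of determined assays these calls were 0, 1 and 0, with the control RNAs 6 were called at 4 weeks, and without untreated replicate 2 the 4-week count was 0. The 1-week count was 0 without untreated replicate 1 or 1-week replicate 1 and 1 without 1-week replicate 2. The single call at 8 weeks was lost in 6 of 8 fits that left out a card. With raw Ct values, 0 miRNAs listed as promoting fibrosis were called at each of the 3 times. With undetermined values at Ct 40 the counts were 1, 0 and 0. miR-128a, listed because its seed is that of miR-27 shifted by 1 base, was determined on 6 of the 8 cards and was not tested.

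Markers of other cell types moved in the same comparisons, and their summed linear levels are given in units of the card mean. Some of these markers, miR-122 among them, are also on the fibrosis lists above, so the counts are not separate. Over all 166 assays, 18.1%, 13.3% and 2.41% were called higher at 1, 4 and 8 weeks. The shares called lower were 14.5%, 16.9% and 0.602%. Of 7 leukocyte miRNAs, 6 were higher at 1 week, 4 at 4 weeks and 0 at 8 weeks, and 0 were lower. The counts were 3 at 1 week and 2 at 4 weeks with the arithmetic or geometric mean of determined assays, 3 at 1 week without 1-week replicate 2, and 2 at 4 weeks without untreated replicate 2. With raw Ct values they were 1 and 0, and with undetermined values at Ct 40 they were 4 and 1. Their sum lay between 26.1 and 43.9 without CCl4 and between 128 and 138 after 1 week. It lay between 95.5 and 132 after 4 weeks and between 48.6 and 69.1 after 8 weeks. No treated card overlapped the untreated cards for this sum, which also held for 29.5% of the 166 single assays. Of 7 tested hepatocyte miRNAs, 2 were lower at 1 week, 6 at 4 weeks and 1 at 8 weeks, and 0 were higher. With each card left out in turn, the counts ran from 1 to 2, from 5 to 6 and from 0 to 1. The 4-week count was 1 when undetermined values became Ct 40 and 4 with raw Ct values. At 1 week these settings gave 1 and 0. At 8 weeks the count was 0 with both, and also with the arithmetic or geometric mean of determined assays. miR-122 passed at none of the 3 times, with log2 differences of -1.20, -0.23 and 0.09 (limma, adjusted p = 0.0949, 0.740 and 0.921). Their sum lay between 227 and 235 without CCl4, between 133 and 137 after 1 week, between 78.5 and 88.2 after 4 weeks and between 136 and 160 after 8 weeks. Both endothelial miR-126 assays were lower at 4 weeks, miR-126-3p at -1.83 and miR-126-5p at -1.65, and neither passed at 1 or 8 weeks. This count of 2 was lower in 5 of 8 fits that left out a card, reaching 0 without untreated replicate 2 or 4-week replicate 2, and was 0 after centring on the control RNAs, quantile normalization, with raw Ct values and with undetermined values at Ct 40. Their sum lay between 241 and 341 without CCl4, between 426 and 444 after 1 week, between 61.8 and 107 after 4 weeks and between 114 and 203 after 8 weeks, and the groups stood in the same order as for miR-24. Of 10 tested stellate and mesenchymal miRNAs, 1 was higher and 1 lower at 1 week, 2 were higher at 4 weeks and 0 passed at 8 weeks, and leaving out a card took the calls at 1 and 4 weeks down to 0 in some fits. These calls were 0 at 1 and 4 weeks with raw Ct values and with undetermined values at Ct 40. At 4 weeks they were 4 with the control RNAs and 1 with the geometric mean of determined assays. The stellate and mesenchymal miRNAs called higher at 1 and 4 weeks were all counted above as promoting fibrosis too. The sum of the stellate and mesenchymal miRNAs lay between 32.8 and 37.6 without CCl4 and between 37.0 and 42.1 after 1 week. It lay between 45.2 and 45.9 after 4 weeks and between 34.0 and 38.9 after 8 weeks. Of the 4 biliary and epithelial miRNAs tested, miR-200a among them, 0 passed at any of the 3 times, although 1 passed at 1 week without untreated replicate 2 and 2 passed at 4 weeks without 4-week replicate 1. Their sum lay between 4.52 and 4.73 without CCl4 and between 4.999 and 5.73 after 1 week. It lay between 2.80 and 4.03 after 4 weeks and between 2.57 and 3.18 after 8 weeks. The members did not all follow this course. At 1 and 4 weeks the log2 differences were 0.03 and -1.02 for miR-200a and 0.82 and -1.35 for miR-429. They were -0.33 and -0.02 for miR-200b and 1.01 and 0.17 for miR-200c. Of the 2 erythroid miRNAs 0 passed, and their sum ran from 1.64 to 2.36 over all cards. Each listed marker that the card carries was determined on at least 1 card. The part of these cell types in the values of miR-23b, miR-27b, miR-24 and miR-27a was not tested.

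Apart from quantile normalization, a change of centring moves all 4 assays by the same amount in a comparison. The median log2 difference of the 166 assays, -0.09 at 1 week and 0.03 at 4 weeks, was -0.45 and -0.25 with the arithmetic mean of all determined assays, and -0.33 and 0.67 with the control RNAs U6, snoRNA135 and snoRNA202. Over the 7 ways of centring, no normalization included, miR-27b took values between -2.06 and -1.47 at 1 week, between -1.94 and -0.45 at 4 weeks and between -0.71 and -0.18 at 8 weeks. miR-23b ran from -1.70 to -1.18 at 1 week. miR-24 stayed above 0 at 1 week, from 0.08 to 0.65, and miR-27a ran from -0.51 to 0.00 there. At 4 weeks miR-24 ran from -1.74 to 0.00 and miR-27a from -0.23 to 1.26.

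**Figure D5:**
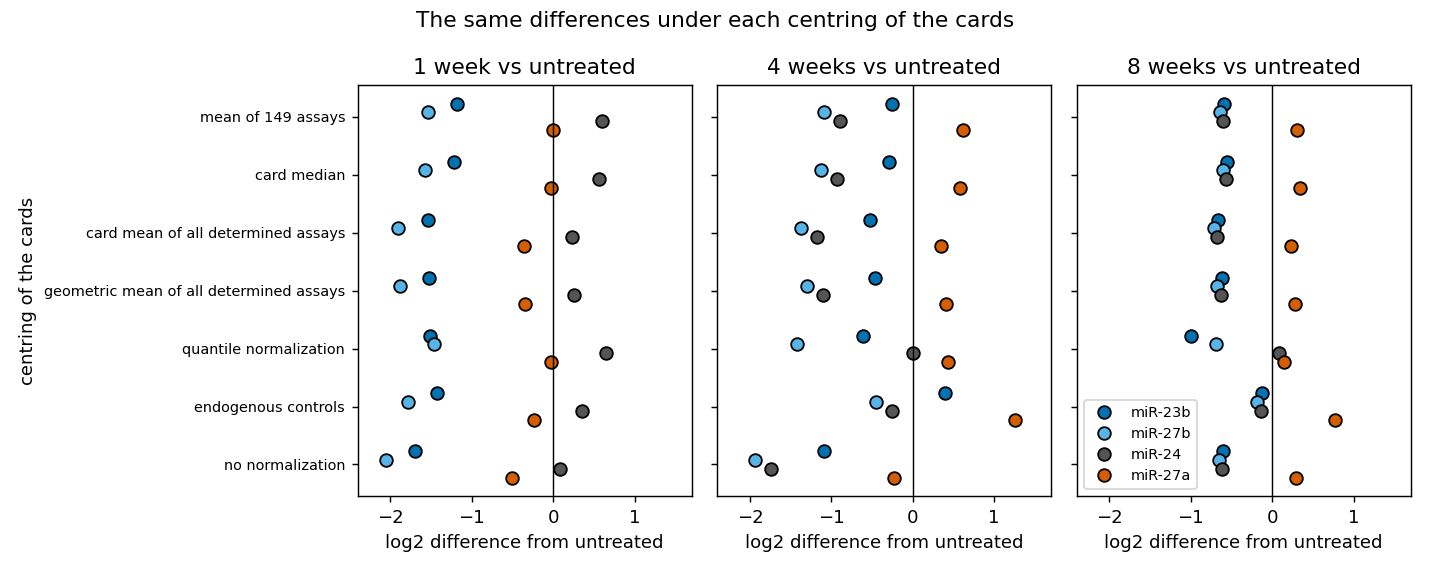
The log2 difference of each assay from untreated liver is plotted at 1, 4 and 8 weeks for each way of centring the cards, from the mean of 149 assays at the top to no normalization at the bottom; assays are offset vertically for legibility. miR-27b is below 0 in every row, and miR-27a lies above miR-27b in every row. Apart from quantile normalization this order is fixed, since a change of centring moves all assays alike.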

How the data were processed

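Liver RNA was reverse transcribed without pre-amplification and run on TaqMan Array Rodent MicroRNA A Cards. The authors deposited raw threshold cycles (Ct) per assay and card, without normalization, with empty cells where no Ct was determined. The software that set the threshold is not given in the sources used here. A second deposited table holds the authors' own fold changes against untreated liver and was not used. Assay names were stripped of their prefix and catalogue number. Log2 values were obtained by subtracting each Ct from the card mean of 149 assays whose Ct was under 35 throughout. The 166 assays with a Ct on all cards and a mean under 35 were fitted over the 8 cards by lmFit and eBayes of limma 3.58.1 (R 4.3.3, 3.47 prior degrees of freedom), and p-values were adjusted by Benjamini-Hochberg within each comparison at 0.05. The methods name the geometric mean of each plate for normalization. It was an alternative here, because cards differed in how many assays were determined. Other alternatives were other centrings, a mean Ct below 32, undetermined values set to Ct 40, a replicate block, a variance trend, a fit to the groups compared and each card left out. The procedure was tested on simulated data. The assays and lists were chosen with earlier results of these data known. Named assays were the members, the 3 assays nearest each in profile, control RNAs, miR-128a, and up to 3 called examples per fibrosis list by size at 1 week. The miR-126 assays, miR-122, miR-200b, miR-200c, miR-429 and the plant control were named outside this rule, with their values known. Sequences came from RefSeq tables. Plots used matplotlib 3.10.9.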

Additional observations from a re-analysis of the deposited data

Results flagged for a closer look

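For miR-24 the response differed between treatment times by a test of the difference itself. The log2 difference between 4 weeks and 1 week was -1.49 (limma, adjusted p = 0.0090), with log2 values of 5.37 and 4.90 at 4 weeks and 6.64 and 6.63 at 1 week. That between 8 weeks and 1 week was -1.20 (limma, adjusted p = 0.0332), with 5.65 and 5.21 at 8 weeks. Over all 166 assays, 47.0% passed at 4 against 1 week and 24.1% at 8 against 1 week. The Ct averaged over the centring assays of a card was 28.3 and 29.8 at 4 weeks and 28.8 and 28.6 at 1 week, and its part in the difference was not tested. The call between 4 weeks and 1 week was lost with the arithmetic and geometric means, the control RNAs, raw Ct values, undetermined values at Ct 40 and without 4-week replicate 2. The call between 8 weeks and 1 week was lost under each other centring, with undetermined values at Ct 40, and without 1-week replicate 1, 1-week replicate 2 or 8-week replicate 2.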

How the results depend on the processing

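What caused the changes below was not tested. With the arithmetic and the geometric mean of all determined assays, miR-23b at 1 week was -1.54 and -1.53 and passed, miR-27a at 1 week was -0.36 and -0.34, miR-27b at 4 weeks was -1.37 and -1.30 and no longer passed, and miR-24 no longer passed at 4 against 1 week (-1.41 and -1.36) and 8 against 1 week (-0.91 and -0.89). With the card median, miR-27a at 1 week was -0.03, and at 8 against 1 week miR-27b passed (0.97) and miR-24 did not (-1.13). With quantile normalization, miR-24 was 0.65 at 1 week and passed, 0.00 at 4 weeks, 0.079 at 8 weeks, 0.24 for any CCl4 and -0.57 at 8 against 1 week, no longer passing, and miR-27a at 1 week was -0.021. With the control RNAs, miR-27a was -0.24 at 1 week, miR-23b 0.39 at 4 weeks, miR-27b -0.45 at 4 weeks and -0.80 for any CCl4, no longer passing, and miR-27a 1.26 at 4 weeks, now passing. At 4 against 1 week miR-23b (1.81), miR-27b (1.33) and miR-27a (1.50) passed and miR-24 (-0.61) did not, and at 8 against 1 week miR-27b (1.60) passed and miR-24 (-0.50) did not. Without normalization, miR-27b at 1 week (-2.06), 4 weeks (-1.94) and any CCl4 (-1.55) and miR-24 at 4 against 1 week (-1.83) and 8 against 1 week (-0.70) lost their calls, miR-27a was -0.51 at 1 week, -0.23 at 4 weeks, -0.15 for any CCl4 and 0.52 at 8 against 4 weeks, and miR-23b was 0.50 there. With undetermined values set to Ct 40, miR-27b at 4 weeks (-1.09) and any CCl4 (-1.09) and miR-24 at 4 against 1 week (-1.49) and 8 against 1 week (-1.20) lost their calls. With a mean Ct below 32, miR-24 at 4 weeks (-0.89) and miR-27b at 8 against 1 week (0.90) passed. With a trend, miR-24 at 4 weeks (-0.89) passed. With only the groups compared, miR-23b at 1 week (-1.18) passed and miR-27b at 4 weeks (-1.09) did not.

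Assays called at 1 week (54) were 5 without normalization and 24 with Ct 40, at 4 weeks (50) 10 and 3, for any CCl4 (48) 2 and 6, for 4 against 1 week (78) 29 and 32, and for 8 against 1 week (40) 8 by either. For any CCl4 they were 24 and 25 with the arithmetic and geometric mean, and at 8 against 1 week 20 with quantile normalization. At 8 weeks (5) they were 1 with raw Ct values and with either mean, 11 with a trend, 12 with the control RNAs, 3 under a mean Ct of 32, and 0 with Ct 40 (limma, 33 at an unadjusted p below 0.05) and with only the groups compared (32). At 8 against 4 weeks (2) they were 1 with either mean, the card median and the control RNAs, 9 with quantile normalization, and 0 without normalization (limma, 18 unadjusted), with Ct 40 (28), with only the groups compared (18) and with the replicate block (25). The split into higher and lower calls, 30 and 24 at 1 week and 22 and 28 at 4 weeks, was 18 and 33 and 12 and 27 with the arithmetic mean, and 45 and 11 at 4 weeks with the control RNAs.

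Replicate numbers are shared across groups, but no label ties same-numbered cards to a shared day or mouse, and across assays the differences between replicates of 2 groups correlated with r from -0.50 to 0.43. With the replicate block, calls were 50 at 1 week, 49 at 4 weeks and 4 at 8 weeks, miR-27b stayed called at 1 and 4 weeks (adjusted p = 0.0144 and 0.0397, limma), and no other call of the 4 assays changed. The single 8-week call among the miRNAs listed as promoting fibrosis was lost with this block. With the untreated numbers crossed, an alternative added after seeing the data, 74, 65 and 17 assays were called at the 3 times, 64 at 8 against 1 week and 11 at 8 against 4 weeks, and miR-24 at 4 weeks (-0.89) and miR-27b at 8 against 1 week (0.90) passed.

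With each card left out in turn, miR-23b ran from -1.23 to -1.13 at 1 week, -1.34 to 0.16 at 8 weeks, -0.92 to -0.42 for any CCl4, 0.75 to 1.12 at 4 against 1 week, -0.15 to 1.34 at 8 against 1 week and -1.09 to 0.41 at 8 against 4 weeks. miR-27b ran from -1.71 to -1.38 at 1 week, -1.25 to -0.93 at 4 weeks and -1.25 to -0.93 for any CCl4, miR-27a from -0.23 to 0.23 at 1 week, and miR-24 from -1.73 to -1.26 at 4 against 1 week and -1.42 to -0.98 at 8 against 1 week. Within these ranges, miR-27a at 1 week was -0.07 without 1-week replicate 1. Calls ran from 15 to 59 at 1 week, 22 to 51 at 4 weeks, 0 to 6 at 8 weeks, 7 to 46 for any CCl4, 30 to 75 at 4 against 1 week, 4 to 49 at 8 against 1 week and 0 to 1 at 8 against 4 weeks. The shift of miR-23b minus miR-27b ran from 0.23 to 0.62, of miR-23b minus miR-27a from -1.24 to -0.73 and of miR-27b minus miR-27a from -1.50 to -1.30. Of the 3 nearest assays, 1 stayed for miR-23b, miR-27b and miR-27a and 0 for miR-24 after quantile normalization, and 1 to 3 stayed for miR-23b and miR-24 with a card left out. Where a group kept 1 card, that card was assumed to vary like the others.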
